A study of Mus musculus with 4 samples.

Results

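Dense clusters are stretches of the genome in which distal H3K27ac peaks of fetal chondrocytes lie close together. They were chosen from the 2 EGFP+ peak lists alone. Peak intervals of limb and trunk EGFP+ cells that did not overlap a promoter window, reaching from 2000 bp before the start site of a protein-coding gene to 500 bp past it, were merged where they overlapped by 1 bp and stitched where neighbouring ones lay within 12500 bp. A stitched unit with 4 or more merged intervals was called a dense cluster. Of 17173 stitched units, 1381 (8.04%) were dense clusters, and they held 7593 of the 30316 merged distal EGFP+ intervals (25.05%). Since the members were chosen by the position of EGFP+ peaks, their EGFP+ peak numbers and spans are a description. The EGFP- peaks, the promoter peaks and the neighbouring genes were not used in the choice, though EGFP+ promoter peaks come from the same libraries.

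The peaks came from fetuses at stage E14.5 that were homozygous for Col2a1-EGFP, a reporter in which an EGFP cassette with a minimal promoter was placed upstream of Col2a1. The fetuses, all male, were made from 1 line of G4 embryonic stem cells by tetraploid aggregation, and no group lacked the reporter. Cells of pooled limbs or pooled trunks, freed of internal organs, were sorted into limb EGFP+, limb EGFP-, trunk EGFP+ and trunk EGFP- populations, and 1 H3K27ac ChIP-seq library was made from each. EGFP- cells are all cells below the EGFP gate, so they mix muscle, connective tissue, skin, vessels and other cells. With 1 library per population there is no replicate error and no test between populations. Shares are given with exact Clopper-Pearson 95% intervals, which cover counting error only, and peaks or genes that lie side by side are not independent.

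H3K27ac is an acetyl mark that histone H3 carries on the nucleosomes around active promoters and enhancers. Genes that define a cell type are often flanked by many such acetylated segments, spread over introns and gene deserts, and a cell's own identity genes are known to lie beside the densest of them. In cartilage, SOX9 with its partners SOX5 and SOX6 switches on the genes of the matrix, among them Col2a1 and Acan, while signals through FGFR3, Indian hedgehog and BMPs set the pace of growth. The gene nearest to a cluster names it here, and it need not be the gene that the cluster regulates.

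The limb EGFP+ list held 40899 intervals (22838 distal), the trunk EGFP+ list 36231 (19303), the limb EGFP- list 34360 (17774) and the trunk EGFP- list 30716 (14238). Promoter peaks of cartilage matrix genes differed between the sorted fractions, and those of skin and muscle genes differed by few peaks. Of all 21463 protein-coding genes, 52.1% had promoter peaks in both fractions, 3.90% in EGFP+ cells alone and 2.76% in EGFP- cells alone. An EGFP+ peak of either tissue lay at the promoters of 22 of 26 cartilage matrix genes and an EGFP- peak at 9. The counts were 20 and 14 at 24 cartilage transcription factors, and 31 and 28 at 37 growth plate signalling genes. At 32 limb patterning genes they were 27 and 17, and at 20 sclerotome genes 14 and 6. At 14 skin epithelium genes the counts were 0 and 5, at 20 skeletal muscle genes 2 and 5, and at 18 endothelial, blood and immune genes 3 and 3. Perichondrium and osteoblast genes did not separate, with 11 of 15 promoters marked in EGFP+ and 11 in EGFP- cells, and neither did tendon and connective tissue genes, with 12 of 18 and 12, or neural genes, with 4 of 14 and 3. According to the peak names, limb and trunk libraries ran on different sequencing lanes, and an effect of the lane cannot be told apart from one of the tissue. Reads at summits were recovered from the p-value and fold of each peak. The strongest summits of clustered intervals rested on up to 235 reads in the limb and 254 in the trunk EGFP+ library. EGFP- peaks inside clusters reached 234 and 257 reads, so these maxima are not particular to EGFP+ cells. The median clustered EGFP+ interval rested on 24 reads in the limb and 23 in the trunk at its summit. The median local background was 5.82 and 6.04 reads.

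The sequences under the strongest EGFP+ summits are shown for 6 clusters that held few or no EGFP- peaks. These 6 are not typical, since only 282 of the 1381 clusters (20.4%) held no distal EGFP- interval. The 6 were picked from the named clusters after their values were seen. Each is the plus strand of a window that reaches 100 bases to either side of the summit (GRCm39). The windows at Wwp2 and Xylt1 lie in introns of those genes and the other 4 are intergenic. Capitals mark ACAAT, the core of the motif bound by SOX proteins, on either strand (read as ATTGT on the reverse strand).
Wwp2, chr8:108205363-108205563: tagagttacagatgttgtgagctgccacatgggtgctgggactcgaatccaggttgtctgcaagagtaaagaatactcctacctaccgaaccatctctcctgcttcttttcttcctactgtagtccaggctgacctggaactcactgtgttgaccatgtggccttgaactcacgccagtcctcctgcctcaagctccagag
Xylt1, chr7:117063903-117064103: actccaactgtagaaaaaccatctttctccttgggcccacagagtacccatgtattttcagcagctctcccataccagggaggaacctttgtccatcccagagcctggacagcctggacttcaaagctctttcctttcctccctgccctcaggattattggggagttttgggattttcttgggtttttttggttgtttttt
Foxc1, chr13:31959529-31959729: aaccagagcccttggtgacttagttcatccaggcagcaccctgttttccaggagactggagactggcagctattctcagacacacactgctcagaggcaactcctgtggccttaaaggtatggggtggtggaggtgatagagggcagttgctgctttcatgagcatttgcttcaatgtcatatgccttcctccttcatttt
Col2a1, chr15:97925127-97925327: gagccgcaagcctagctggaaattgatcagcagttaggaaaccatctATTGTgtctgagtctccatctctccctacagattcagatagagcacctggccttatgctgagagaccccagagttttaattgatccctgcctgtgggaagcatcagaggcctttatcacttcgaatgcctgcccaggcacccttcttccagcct
Kcnj2, chr11:111718969-111719169: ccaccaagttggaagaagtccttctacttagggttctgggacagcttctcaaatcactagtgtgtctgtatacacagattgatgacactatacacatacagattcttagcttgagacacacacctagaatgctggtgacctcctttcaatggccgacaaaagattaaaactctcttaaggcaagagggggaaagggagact
Fgfr3, chr5:33850238-33850438: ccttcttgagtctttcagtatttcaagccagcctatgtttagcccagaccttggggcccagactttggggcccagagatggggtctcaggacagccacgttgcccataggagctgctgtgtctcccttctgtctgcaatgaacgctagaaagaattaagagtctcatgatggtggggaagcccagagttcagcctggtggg

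Of these windows the one at Col2a1 held 1 copy of the SOX core and the other 5 held none. None of the 6 held the FOX motif TGTTTAC, the RUNX motif TGTGGT or the AP-1 motif TGANTCA. E-boxes, CANNTG, were found 3 times at Wwp2 and at Foxc1, and not in the windows at Kcnj2 and Fgfr3. A missing match says only that these letters are not in this window.

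Over all clustered intervals the motif content was close to that of other distal EGFP+ intervals. The SOX core lay in 21.2% of 6213 clustered limb EGFP+ summit windows (20.2 to 22.3) and in 23.9% of 16625 limb EGFP+ windows outside clusters (23.2 to 24.5). In the trunk the shares were 19.3% of 5074 (18.2 to 20.4) and 22.1% of 14229 (21.4 to 22.8), and in both tissues the interval of clustered summits lay below that of the rest. Limb EGFP- distal peaks held it in 23.8% of windows and all limb EGFP+ peaks, promoters included, in 19.5%. The clustered windows were richer in G and C, with a median of 51.2% against 49.3% for limb peaks and 51.7% against 50.2% for trunk peaks, and the part of base composition in the motif shares was not tested. The RUNX motif was found in 14.3% of clustered and 14.1% of other limb windows, and in 14.03% and 14.02% in the trunk. FOX motifs were found in 2.41% and 2.88% of limb windows. AP-1 motifs were found in 4.80% and 5.38%, the MEF2 motif TATTTTTA in 1.69% and 2.02%, E-boxes in 64.2% and 63.4%, and the GC box GGGCGG in 6.12% and 6.03%. In the trunk MEF2 motifs lay in 1.08% of clustered and 1.76% of other windows. A pair of SOX cores facing each other with 3 to 5 bases between them was found in 4 clustered limb windows and 12 others, and in 0 clustered and 7 other trunk windows. At a spacing of 5 to 7 bases, added after the data were seen, it was found in 6 and 18 limb windows and in 2 and 11 trunk windows, too few to compare.

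The number of units fell with the number of intervals in them, without a break at the threshold. There were 10345 units of 1 interval, 3963 of 2 and 1484 of 3. Just inside the threshold, 611 clusters held 4 intervals with a median span of 12.7 kb, and just outside it the 1484 units of 3 had a median span of 7.39 kb. At the far end 81 clusters held 10 or more intervals, and the largest held 24. Clusters spanned a median of 17.97 kb (quartiles 11.995 and 24.7, range 1.44 to 98.8 kb), of which the intervals themselves covered a median of 2.24 kb, and together they spanned 27.6 Mb. A cluster is thus a string of short peaks with a median gap of 1.87 kb. Of the clustered intervals 48.3% were intergenic, 48.1% intronic and 3.61% exonic by their midpoints.

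**Figure D1:**
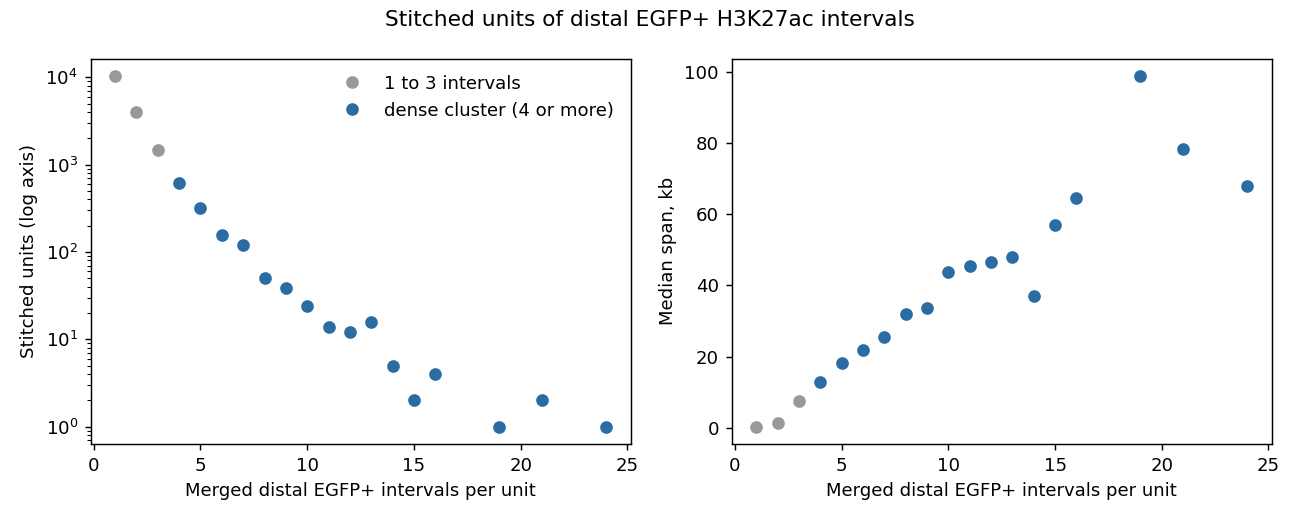
Number of stitched units (left, log axis) and their median span in kb (right) against the number of merged distal EGFP+ intervals per unit. Grey points are units of 1 to 3 intervals and blue points the dense clusters, from 611 units of 4 intervals down to 1 unit of 24.

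Clustered peaks were stronger in p-value and weaker in fold than isolated ones. The median -log10 p of limb EGFP+ intervals was 6.70 in units of 1, 7.36 in units of 2 or 3, 7.98 in clusters and 8.82 in clusters of 10 or more. The trunk medians were 6.31, 6.91, 7.24 and 7.74. The median fold over local background went the other way, from 4.12 in limb units of 1 to 3.57 in clusters and 3.25 in clusters of 10 or more, and from 3.85 to 3.34 and 3.09 in the trunk. The local background read out at the summits was higher inside clusters than outside, at 5.82 against 3.08 reads for limb and 6.04 against 3.38 for trunk peaks, and the fold is taken over that background. Clustered intervals were also wider, with medians of 364 bp against 296 bp in units of 1 in the limb list.

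The cluster with most intervals lay inside Wwp2, a gene for an E3 ubiquitin ligase that also hosts the cartilage microRNA Mir140. It spanned 67.8 kb (chr8:108182187-108249983) and held 24 merged intervals, all intronic. The limb EGFP+ list had 19 peaks in it, the trunk EGFP+ list 18, the limb EGFP- list 1 and the trunk EGFP- list 1. The EGFP+ peaks of both tissues were strung from one end of the span to the other with gaps between them and covered 11.8 kb of it, and the EGFP- populations had 1 peak each, near opposite ends. The strongest summits reached a -log10 p of 17.1 (limb) and 10.2 (trunk) in the EGFP+ lists, and 6.85 and 3.99 in the EGFP- lists. The promoters of Wwp2, the nearest 6.04 kb away, were marked in all 4 populations. Their best -log10 p was 52.0 in limb EGFP+, 30.7 in limb EGFP-, 36.8 in trunk EGFP+ and 37.5 in trunk EGFP- cells. Mir140 lay 27.9 kb beyond the other end of the cluster, and no list had a peak on it.

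The longest cluster lay in the introns of Xylt1, whose enzyme adds the first sugar of the chains on proteoglycans. It spanned 98.8 kb (chr7:117011079-117109905) with 19 intervals, and held 17 limb EGFP+ peaks, 9 trunk EGFP+ peaks, 2 limb EGFP- peaks and 0 trunk EGFP- peaks. Limb peaks were the more numerous here, with 10 intervals marked in the limb alone and 3 in the trunk alone. At Foxc1, a forkhead factor of the skeletal mesenchyme, a cluster of 15 intervals over 60.6 kb (chr13:31944402-32005013) held 12 limb and 9 trunk EGFP+ peaks, 0 limb EGFP- peaks and 1 trunk EGFP- peak. The Foxf2 gene, 135 kb from the same cluster, had no promoter peak in either EGFP+ list. The Foxc1 promoter was marked at a -log10 p of 26.5 in limb and 19.9 in trunk EGFP+ cells. It also had a peak in trunk EGFP- cells, at 10.06, and none in limb EGFP- cells.

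The cluster at Col2a1, the gene of the major collagen of cartilage, held 14 intervals over 33.6 kb (chr15:97899383-97933031) and covered the start site. It had 12 limb and 11 trunk EGFP+ peaks against 2 limb and 1 trunk EGFP- peaks. These EGFP- peaks lay in the gene body at one end of the cluster, and no distal EGFP- peak lay upstream of the start site. The Col2a1 promoter itself had a peak in limb EGFP- cells at a -log10 p of 5.67 and none in trunk EGFP- cells. It was marked at 18.7 in limb and 11.8 in trunk EGFP+ cells. The strongest summit was upstream of the gene, at a -log10 p of 21.1 in limb EGFP+ cells, and its sequence is given above. The reporter cassette sits in this span and carries a promoter of its own, and the reads were mapped to a genome without it, so its part in the signal here was not tested. The Col2a1 gene was also what the cells were sorted on.

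**Figure D2:**
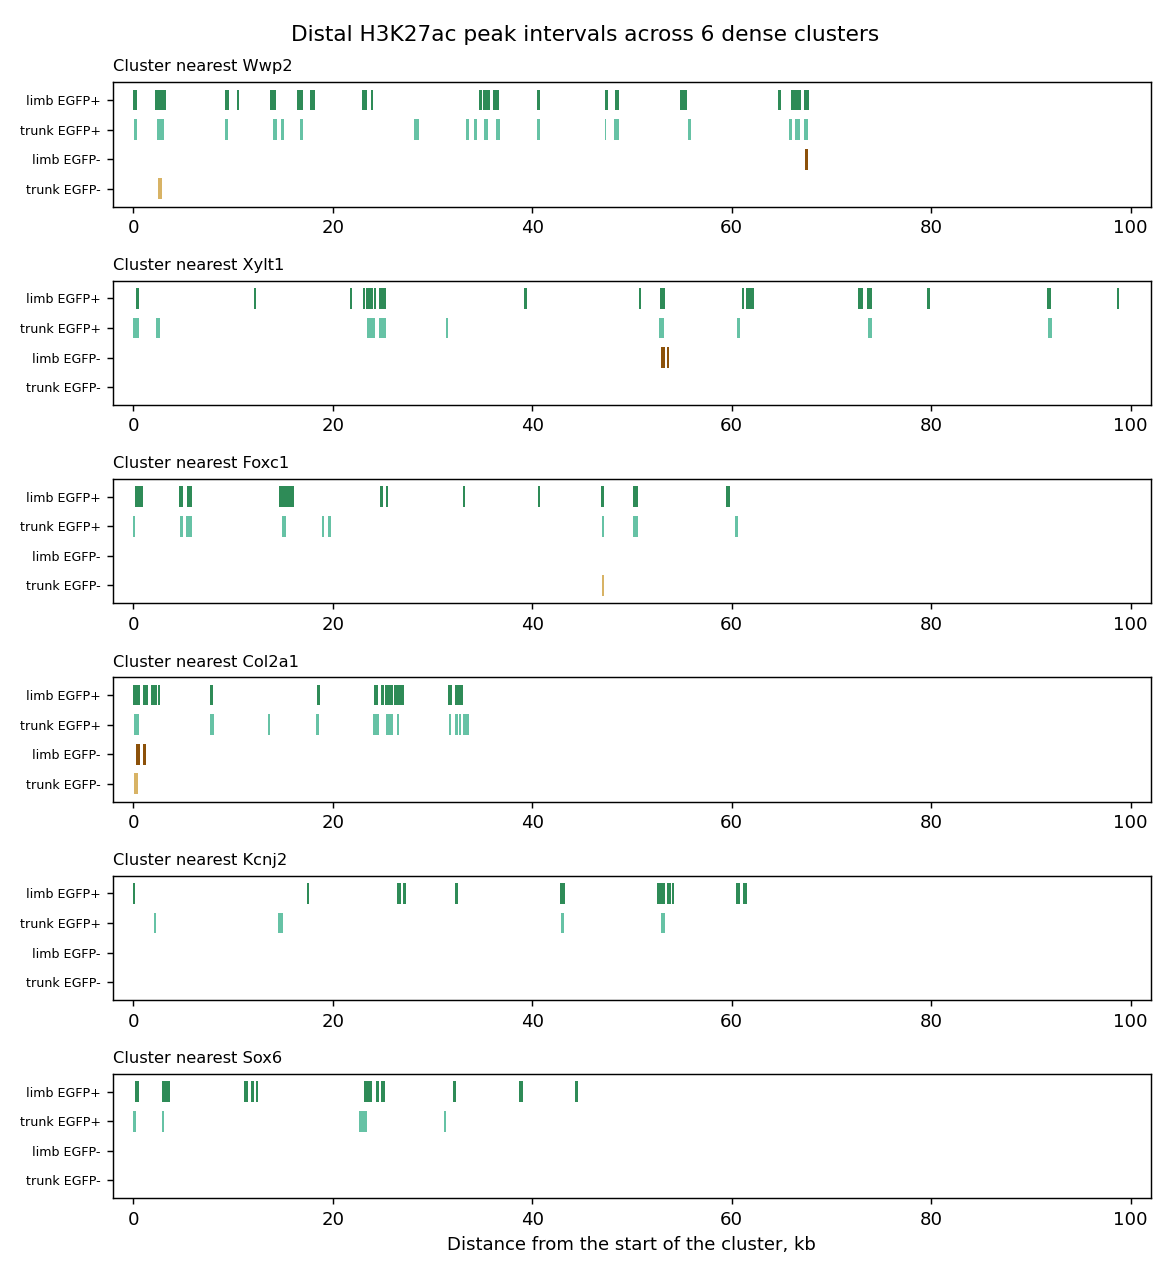
Distal peak intervals (bars, to scale) of the 4 populations across 6 dense clusters, against the distance in kb from the start of each cluster. Green rows are limb and trunk EGFP+ cells and brown rows EGFP- cells, which had 2 intervals at Wwp2 and at Xylt1, 1 at Foxc1, 3 at Col2a1 and 0 at Kcnj2 and Sox6.

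Other clusters among the 15 largest were shared with EGFP- cells. The cluster at Igf2r, the receptor that clears IGF2, had 21 intervals over 72.3 kb (chr17:12941140-13013438), with 21 limb and 18 trunk EGFP+ peaks and 13 limb and 15 trunk EGFP- peaks. The cluster over Nmur1 and Tex44 had 21 intervals over 84.1 kb (chr1:86348767-86432851), with 20 and 18 EGFP+ peaks and 14 and 13 EGFP- peaks. Its best summits reached a -log10 p of 39.8 in limb and 48.6 in trunk EGFP- cells, and of 48.3 and 43.3 in EGFP+ cells. Between these extremes, the clusters nearest Pkdcc, a secreted kinase of matrix proteins, and Serp2 held 16 intervals each with 9 and 6 EGFP- peaks. A cluster of 16 intervals at Pim3, a kinase gene, held 3, and one of 16 in 4930558K02Rik held 12. The clusters at Ddit4, a stress-induced inhibitor of mTOR, at Synpo, an actin-binding protein, and nearest Haao held 14 EGFP- peaks each, and that nearest Mcfd2 held 7. Of the 15 clusters, 10 overlapped a cluster built in the same way from the EGFP- lists, while those at Wwp2, Xylt1, Serp2, Pim3 and Foxc1 did not.

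The remaining cluster of the 15, near the start of chromosome 9 (chr9:2999930-3036251, 299 kb from Alkbh8), stood apart in sequence. In its 36.3 kb, 92.7% of all 31-base words occurred more than once, against a median of 0.574% over all clusters. It held 13 limb EGFP+, 3 trunk EGFP+, 13 limb EGFP- and 3 trunk EGFP- peaks, so its peak numbers followed the tissue and not the sort. It is 1 of 12 clusters in which over 10% of such words were repeated, and the part of mapping in its peaks was not tested. Without those 12, a count added after the data were seen, 1369 clusters were left, of which 20.5% held no EGFP- interval.

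EGFP- peaks were found inside most clusters. As for EGFP+ peaks, those counted inside a cluster are distal, and promoter peaks are given apart. A cluster held a median of 3 distal EGFP- intervals (quartiles 1 and 5, highest 28), a median of 2 from the limb and 1 from the trunk. No distal EGFP- interval lay in 282 of the 1381 clusters (20.4%, 18.3 to 22.6), and with promoter peaks included 275 (19.9%) held none. The limb EGFP- list left 379 clusters empty and the trunk EGFP- list 453. Of all stitched units 59.7% held no distal EGFP- interval, but a longer span has more room for one: the share was 70.4% for units of 1, 49.3% for units of 2 or 3, 24.7% for clusters of 4 or 5, 12.47% for those of 6 to 9 and 7.41% (6 of 81) for those of 10 or more. In 123 clusters (8.91%) EGFP- intervals were at least as many as EGFP+ intervals.

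Counted per interval, which leaves out the gaps in a span, the clusters were slightly more shared with EGFP- cells than isolated peaks were. Clustered intervals were also wider, and the part of width in this share was not tested. Of clustered merged intervals 37.2% (36.1 to 38.3) were overlapped by an EGFP- interval of either tissue, against 32.4% (31.6 to 33.3) in units of 2 or 3 and 30.8% (29.9 to 31.7) in units of 1. Over all 30316 merged intervals the share was 33.1%. Within the limb lists it was 30.9% in units of 1, 30.1% in units of 2 or 3 and 34.5% in clusters. Within the trunk lists it was 30.6%, 29.3% and 33.7%. Clusters had a higher share than units of 1 under each of the 12 processing alternatives. The order of clusters and units of 1 changed with peak strength. When limb EGFP+ intervals were split into 3 equal groups by -log10 p, the strongest group made up 40.2% of clustered intervals and 27.04% of intervals in units of 1. Within that strongest group, the overlap with limb EGFP- intervals was 53.2% (51.2 to 55.1) in clusters and 64.7% (62.5 to 66.9) in units of 1, the reverse of their pooled order. In the weakest group it was 16.9% (15.2 to 18.8) and 13.4% (12.1 to 14.7). The trunk gave 54.2% against 64.0% in the strongest group and 18.6% against 12.7% in the weakest. In the middle group the intervals of clusters and units of 1 overlapped, at 26.7% (24.8 to 28.8) against 24.2% (22.5 to 26.0) for limb and 23.3% (21.3 to 25.4) against 22.8% (21.05 to 24.6) for trunk, while in the strongest and weakest groups they did not overlap in either tissue.

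**Figure D3:**
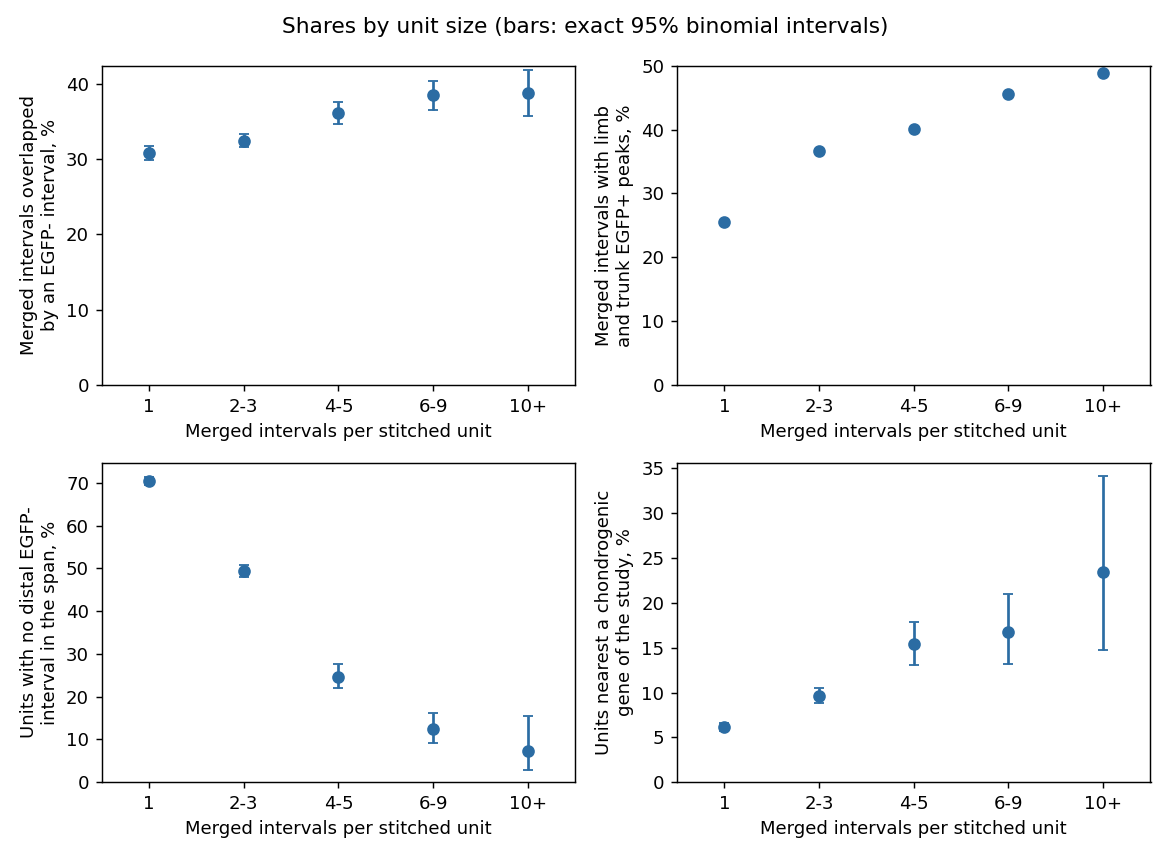
Shares against the number of merged intervals per stitched unit, with exact 95% binomial intervals as bars except for sharing between tissues, which is a description. Overlap with EGFP- intervals rose from 30.8% in units of 1 to 38.7% in clusters of 10 or more, sharing between limb and trunk from 25.5% to 48.8% and units nearest a chondrogenic gene of the study from 6.16% to 23.5%, while units with no distal EGFP- interval fell from 70.4% to 7.41%.

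The 282 clusters without a distal EGFP- interval lay near other genes than the rest. The chondrogenic genes of the study are those its RNA-seq placed higher in EGFP+ than in EGFP- cells of the same sort, so they are not independent of it. Such a gene was the nearest to the midpoint of 87 of the 282 clusters (30.9%, 25.5 to 36.6) and of 137 of the 1099 clusters with EGFP- intervals (12.47%, 10.6 to 14.6). The gap was present in clusters of 4 or 5 intervals (27.4% against 11.4%) and in those of 6 or more (46.2% against 14.3%). The nearest gene had a promoter peak in EGFP+ cells alone for 16.7% (12.51 to 21.5) of the 282 and 8.10% (6.55 to 9.87) of the others. They lay farther from start sites, with 26.2% over 100 kb from any against 14.2%, and 6.03% against 19.1% had a start site inside. Their intervals were marked in both tissues less often (33.2% against 45.3%) and in the limb alone more often (43.7% against 34.8%). They were also shorter, with a median span of 13.7 kb against 19.02 kb.

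The largest of these clusters were named by Kcnj2, Sox6, Cpne8, Meltf and Fgfr3. The cluster named by Kcnj2, a potassium channel gene, had 13 intervals over 61.5 kb (chr11:111666050-111727562) and lay 709 kb from that gene, in the gene desert that precedes Sox9. It held 11 limb and 4 trunk EGFP+ peaks and 9 of its intervals were marked in the limb alone. The cluster at the end of Sox6, the partner factor of SOX9, had 13 intervals over 44.6 kb (chr7:115049449-115094045) with 12 limb and 4 trunk EGFP+ peaks, and lay 168 kb from the nearest start site of Sox6. A cluster of 7 intervals lay closer, 13.8 kb from a Sox6 start site, with 7 limb and 4 trunk EGFP+ peaks and again no EGFP- peak. The promoter of Sox6 was marked in all 4 lists, at a -log10 p of 16.6 in limb EGFP+, 6.71 in limb EGFP-, 14.4 in trunk EGFP+ and 11.3 in trunk EGFP- cells.

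At Fgfr3, the receptor that restrains growth of the growth plate, a cluster of 11 intervals over 43.8 kb (chr5:33830970-33874761) ended 4.26 kb before the start site. It held 10 limb and 7 trunk EGFP+ peaks and no EGFP- peak, and its best summit was at a -log10 p of 27.4. The Fgfr3 promoter was marked at 30.2 in limb and 18.4 in trunk EGFP+ cells and had no peak in either EGFP- list. Promoter and cluster both lacked EGFP- peaks here. The other large clusters without distal EGFP- peaks lay at Cpne8, a copine gene (12 intervals, 7 limb and 8 trunk EGFP+ peaks), and at Meltf, the gene of melanotransferrin, an iron-binding surface protein (12 intervals, 9 and 8 peaks). The cluster at Cpne8 covered a start site, where trunk EGFP- cells had a promoter peak at a -log10 p of 6.18. Both genes are on the study's chondrogenic list.

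The clusters with most EGFP- peaks were those at Igf2r and over Nmur1 and Tex44, with 28 and 27. A cluster on chromosome 2 nearest 1700001O22Rik had 23, and Prrx2, a homeobox gene of limb mesenchyme, lay 115 kb away. The cluster nearest Chd2, a chromatin remodeller, had 18. At Chd2 all 4 lists had strong summits, at a -log10 p of 51.1 and 51.2 in limb EGFP+ and EGFP- cells and 36.7 and 50.1 in trunk.

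**Figure D4:**
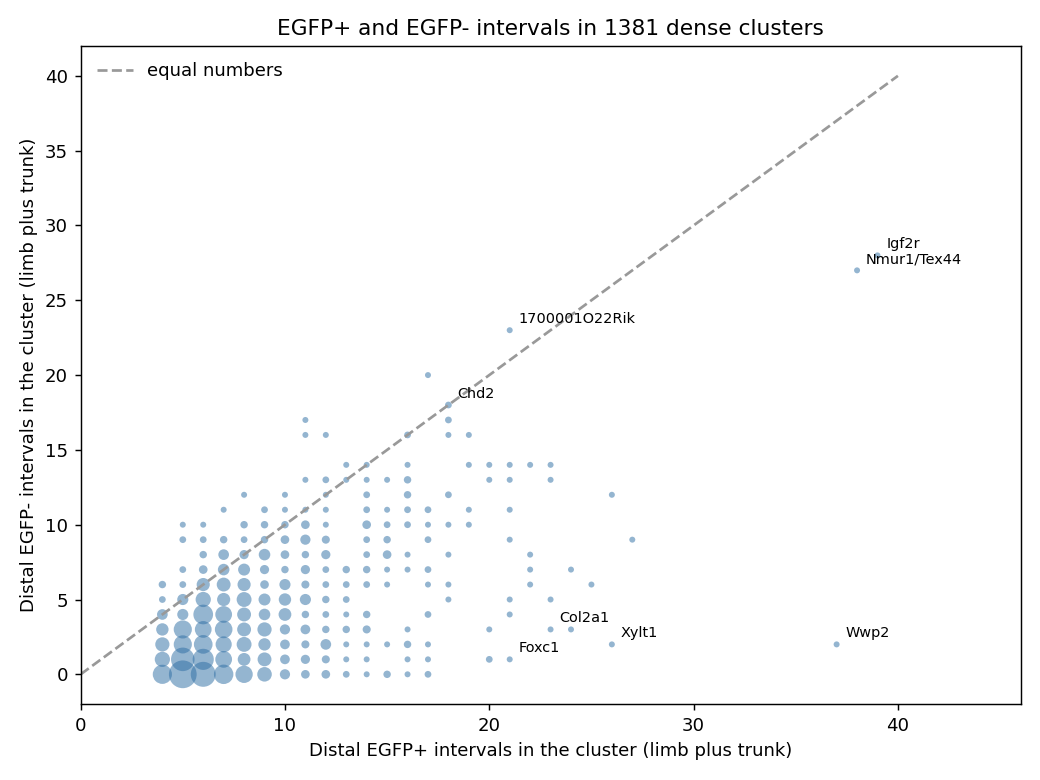
Distal EGFP- intervals against distal EGFP+ intervals in each of the 1381 dense clusters, limb plus trunk, with larger points where more clusters share a position. The dashed line marks equal numbers: 1700001O22Rik lies above it and Chd2 on it, while Wwp2, Xylt1, Foxc1 and Col2a1 hold 1 to 3 EGFP- intervals at 21 to 37 EGFP+ intervals.

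Sharing between limb and trunk is given as a description, since both EGFP+ lists were used to choose the clusters. Both EGFP+ lists marked 43.1% of clustered intervals, 36.7% of those in units of 2 or 3 and 25.5% of those in units of 1, against 34.5% over all merged intervals. In clusters of 10 or more the share reached 48.8%. Trunk peaks alone accounted for 20.5% of clustered intervals and 35.8% of intervals in units of 1, and limb peaks alone for 36.4% and 38.7%. Of the 1381 clusters 4 had no limb EGFP+ peak and 32 no trunk EGFP+ peak. Intervals of the limb alone outnumbered those of the trunk alone in 798 clusters (57.8%), the reverse held in 332 (24.04%) and 251 were even. The limb list was the longer of the pair.

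Beside the repeat-rich cluster of chromosome 9, the largest limb excess lay at Pim3 and Sox6, each with 8 more intervals marked in the limb alone than in the trunk alone. At Pim3 there were 16 limb and 8 trunk EGFP+ peaks. The largest trunk excess lay on chromosome 8 nearest 1700018B08Rik, with 4 limb and 10 trunk EGFP+ peaks over 49.2 kb (chr8:122109674-122158866). The forkhead genes Foxl1, Foxc2 and Foxf1, which act in the sclerotome, lay 255, 267 and 299 kb from it. A closer cluster, 35.3 kb from Foxl1, had no trunk excess. It held 4 limb and 3 trunk EGFP+ peaks, with 2 intervals marked in the limb alone and 1 in the trunk alone. Foxf1 had a promoter peak in trunk EGFP+ cells (10.4) and none in limb EGFP+ cells, and Foxl1 was marked at 11.1 and 7.82. Several clusters tied for the next trunk excess, among them those in Ece1, which makes endothelin, with 4 limb and 8 trunk EGFP+ peaks, and near Prelp, a leucine-rich matrix protein, also with 4 and 8. Both held EGFP- peaks as well, 8 and 12. With 1 library per tissue these differences have no replicate check.

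Among 9 loci named in the study, 6 had a cluster within 100 kb of a start site. The landscape of Sox9, the master regulator of cartilage, was the richest, with 11 clusters and 74 intervals within 1000 kb, of which 7 clusters held no EGFP- interval and all 11 together held 10. The nearest, 70.5 kb upstream, had 5 intervals with 5 limb and 4 trunk EGFP+ peaks and no EGFP- peak. Others lay 160, 236, 606, 726 and 779 kb upstream, and the large cluster named by Kcnj2 at 945 kb. Downstream, clusters of 5, 11 and 7 intervals lay 296, 382 and 495 kb away, and a further one of 5 at 945 kb. Those of 11 and 7 intervals were nearest a start site of Slc39a11, and the last covered a start site of Cdc42ep4. The one of 11 held 2 limb and 4 trunk EGFP- peaks. The Sox9 promoter itself was marked in all 4 lists, at a -log10 p of 20.5 in limb EGFP+, 14.7 in limb EGFP-, 16.2 in trunk EGFP+ and 20.6 in trunk EGFP- cells. Most of the clusters within 1000 kb, some of them nearest other genes, thus lacked EGFP- peaks while the Sox9 promoter had them.

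At Acan, the gene of the main cartilage proteoglycan, 1 cluster of 7 intervals over 13.7 kb covered a start site and another of 10 over 48.8 kb lay 79.9 kb upstream. Together they held 17 limb and 15 trunk EGFP+ peaks and 1 EGFP- peak, and the Acan promoter had peaks in EGFP+ cells alone (19.04 in limb, 14.2 in trunk). Gdf5, a joint and growth factor gene, had a cluster of 6 intervals 61.8 kb away with 6 limb and 6 trunk EGFP+ peaks and 2 limb EGFP- peaks. Tbx4, a hindlimb factor, had one of 4 intervals 19.3 kb away with 4 limb and 5 trunk EGFP+ peaks and no EGFP- peak. Its promoter peak reached a -log10 p of 20.4 (limb) and 4.83 (trunk) in the EGFP+ lists, and 13.5 in limb EGFP- cells. The nearest clusters to Hhip, an antagonist of hedgehog signals, and Nkx3-2, a factor of the axial skeleton, lay 184 and 202 kb away with 4 intervals each. Shox2, a stature-related factor of the proximal limb, had no cluster within 1000 kb and no promoter peak in any list.

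Genes of cartilage were near clusters more often than genes in general. Of 21463 protein-coding genes 3095 (14.4%, 13.95 to 14.9) had a start site within 100 kb of a cluster. Of the study's chondrogenic genes, 655 of the 779 listed were matched to protein-coding genes of the annotation, and 247 of these (37.7%, 34.0 to 41.5) were within 100 kb. Genes with an active promoter lie near clusters more often in any case. Of 12014 genes with an EGFP+ promoter peak 19.3% were within 100 kb, against 7.77% of those with no promoter peak, and of the 483 chondrogenic genes with such a peak 42.2% (37.8 to 46.8). Genes that the study called common to limb and trunk were near a cluster in 39.4% of 563 cases, limb-specific ones in 26.5% of 49 and trunk-specific ones in 27.9% of 43, with wide intervals of 14.9 to 41.1 and 15.3 to 43.7 for the small groups. The gene nearest the midpoint was chondrogenic for 6.16% of units of 1, 9.64% of units of 2 or 3, 16.2% of clusters and 23.5% (14.8 to 34.2) of clusters of 10 or more.

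Of 24 cartilage transcription factors 11 had a cluster within 100 kb (45.8%, 25.6 to 67.2), against 14.4% of all genes. Beside Foxc1, Runx3 had a cluster of 9 intervals over its start site with 8 limb and 9 trunk EGFP+ peaks and 2 EGFP- peaks from each tissue. Sox5 and Sox8 had clusters of 7, with 4 and 1 EGFP- peaks. The others were Sox6, Mef2d, Foxc2, Sox9, Nfib, Gli3 and Runx2. Of 26 cartilage matrix genes 12 were near a cluster (46.2%, 26.6 to 66.6). Ucma, a matrix protein of maturing cartilage, lay in a cluster of 7 intervals with 6 limb and 4 trunk EGFP+ peaks and no EGFP- peak, although its promoter had no peak in any list. Clusters without EGFP- peaks also lay near Acan, Col11a1, Col9a3, Matn1, Matn3 and Matn4, while those near Prelp and Fmod held 12 and 5 EGFP- peaks.

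Of 37 genes of growth plate signalling 14 were near a cluster (37.8%, 22.5 to 55.2). Among the receptors, Fgfr1 had a cluster of 7 intervals 2.73 kb away with 6 limb and 8 trunk EGFP+ and 5 limb and 4 trunk EGFP- peaks, and Fgfr2 one of 7 with 2 EGFP- peaks, against none at Fgfr3. Ror2, a receptor of Wnt5a, had one of 10 with 10 EGFP- peaks. Among the ligands and antagonists, the clusters near Ihh, the Indian hedgehog gene (5 intervals), and Nog, a BMP antagonist (4 intervals), held no EGFP- peak. Sclerotome and axial skeleton genes were near clusters in 8 of 20 cases (40.0%), where Foxl1, Foxc2 and Foxf1 shared 1 cluster and Hoxc6, Hoxc8, Hoxc9 and Hoxc10 another, and Gas1, a hedgehog co-receptor, had a cluster of 9 with 9 EGFP- peaks. Limb patterning genes were near clusters in 5 of 32 cases (15.6%), close to the share of all genes. These were Prrx2, with 8 limb and 5 trunk EGFP- peaks in its cluster, Msx1, with none, Hand2, and Tbx4 and Tbx2, which shared 1 cluster. The cluster near Hand2 had 5 limb and 0 trunk EGFP+ peaks and 6 limb and 3 trunk EGFP- peaks.

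**Figure D5:**
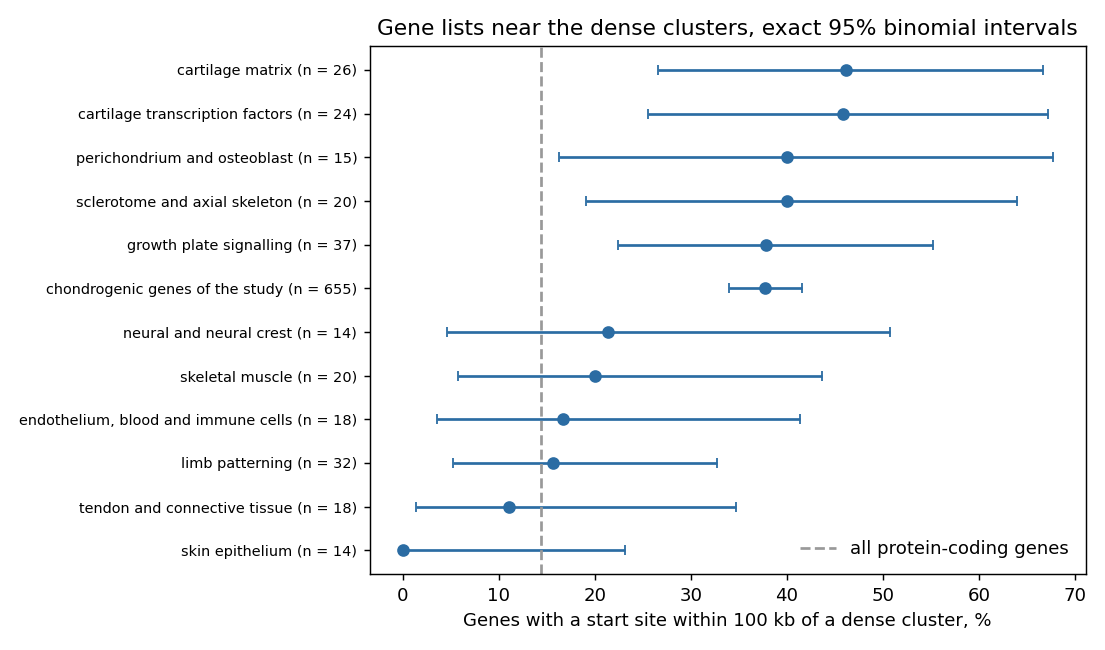
Share of genes in each list with a start site within 100 kb of a dense cluster, in percent, with exact 95% binomial intervals as bars and the share of all protein-coding genes (14.4%) as a dashed line. The lower bounds of the lists of cartilage, sclerotome, perichondrium and growth plate genes lie above the line, and the intervals of the other lists span it. The bars treat genes that share a cluster as independent. Foxc2, Nkx3-2, Runx2 and Shox2 count among the cartilage transcription factors and in another list as well. Dlx5 counts in the limb patterning and the perichondrium and osteoblast lists.

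For 5 lists of other cell types the intervals included the share of all genes. For perichondrium and osteoblast genes the lower bound of 16.3% lay just above the 14.4% of all genes. Runx2 counts both there and among the cartilage transcription factors, and the interval without it was not computed. None of 14 skin epithelium genes was within 100 kb of a cluster (upper bound 23.2%). The counts were 4 of 20 for skeletal muscle, 3 of 18 for endothelium, blood and immune cells, 3 of 14 for neural genes and 2 of 18 for tendon and connective tissue. Tnnt3, a muscle troponin, lay 7.83 kb from a cluster of 12 intervals with 9 limb and 9 trunk EGFP+ and 5 limb and 5 trunk EGFP- peaks. Myog and Chrna1 had clusters of 4 and 5. Runx1, a factor of blood and of cartilage, had one of 9 intervals with 1 EGFP- peak, and Erg, a factor of endothelium and articular cartilage, one of 6 with 3 limb and 6 trunk EGFP+ peaks and 1 EGFP- peak. Lyl1, Sox10, Tcf7l2 and Scx also had clusters of 4 to 9 intervals. Perichondrium and osteoblast genes were near clusters in 6 of 15 cases (40.0%, 16.3 to 67.7). Col1a1, the bone collagen gene, lay in a cluster of 7 intervals with 5 limb and 5 trunk EGFP+ and 6 limb and 4 trunk EGFP- peaks. The cluster counted for Alpl (11 intervals, 8 EGFP- peaks) is the one in Ece1 and lay 95.8 kb from Alpl. The clusters near Sox11, Runx2 and Foxp1 held no EGFP- peaks. The part of other cell types in the EGFP+ lists was not tested beyond these counts.

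Promoters of genes near clusters had peaks in EGFP+ cells alone more often than promoters elsewhere. The rule left promoter peaks out, but those of EGFP+ cells come from the same libraries whose peaks chose the clusters. They are therefore not independent of the choice, and no such count was made for genes near EGFP- clusters. A protein-coding gene was nearest to a cluster, or had a start site inside one, in 1121 cases. Of these genes 9.01% (7.40 to 10.8) had a promoter peak in EGFP+ cells alone, against 3.61% (3.36 to 3.88) of the other 20342 genes and 3.90% of all genes. For clusters of 10 or more it was 12 of 80 genes (15%, 7.998 to 24.7). Promoter peaks in EGFP- cells alone were as frequent near clusters as elsewhere, at 2.77% and 2.76%. Most genes nearest a cluster, 74.6%, had promoter peaks in both fractions, against 50.8% of the others, and 13.6% had none against 42.8%. A start site lay inside 227 clusters (16.4%), 230 (16.7%) were over 100 kb from any, and those with no start site inside lay a median of 30.9 kb from one.

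Clusters were spread over all chromosomes but Y. Their density ran from 9.26 per 10 Mb on chromosome 11, which is also rich in genes, to 3.36 on chromosome 14 among the autosomes. Chromosome X had 20 clusters over 169 Mb. The fetuses were male, and the part of the copy number of X and Y in these counts was not tested. Chromosomes 7 and 19, with gene densities near that of chromosome 11, had 5.104 and 4.40 clusters per 10 Mb.

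The same procedure applied to the EGFP- lists gave 728 clusters from 24110 merged intervals in 15853 units, the largest with 22 intervals. They held 15.7% of the merged EGFP- intervals, against 25.05% in EGFP+ clusters, with a median span of 17.8 kb against 17.97 kb. Of the 1381 EGFP+ clusters 353 (25.6%, 23.3 to 27.9) overlapped an EGFP- cluster, and 347 of the 728 EGFP- clusters (47.7%, 44.0 to 51.4) overlapped an EGFP+ cluster. The gap was smaller with lists of equal length. With each list reduced to the length of the shortest by -log10 p, there were 696 EGFP+ and 590 EGFP- clusters.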

How the data were processed

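H3K27ac ChIP-seq peak lists of 4 sorted populations were used, with 1 library each. Per the labels and the study's methods, the authors sampled reads to equal numbers, trimmed them with cutadapt 1.18, mapped them with Bowtie2 2.3.5.1 to GRCm39, filtered them by mapping quality with SAMtools and called peaks per library with MACS2 2.2.7.1. No input control was named. Each deposited row gives a summit with a display score, the fold over local background, -log10 p and -log10 q. The lowest deposited -log10 q was 1.30. The trunk EGFP- peak names carry another replicate number than its label, and reads were of 50 or 100 bases without a statement of which. The protocol names 2 sonicators without saying which library each served.

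Rows of the same start and end were joined, keeping the summit of highest -log10 p. Genes were the 21463 protein-coding genes with a protein-coding transcript start (67219 start sites) of GENCODE mouse M39 on GRCm39. Readthrough transcripts were left out. Reads at summits were recovered from fold and -log10 p as an upper Poisson tail, which matched every interval within 0.01. Python 3.11.15, numpy 2.4.6, scipy 1.17.1 and pysam 0.24.0 were used. The stitching and the recovery were tested on simulated data. Named were the 15 clusters with most intervals, the 5 with most intervals and no distal EGFP- interval, the 5 with most EGFP- intervals, the 3 with the largest excess of each tissue, the 9 loci of the study and up to 4 genes per list, and other members of a list are named only to complete its count. A few of these are not reported here. The members and gene lists were chosen with earlier results of these data known. Alternatives changed the stitching distance, peak thresholds, list lengths, overlap, promoter filter, tissues, cluster size, chromosomes and gene window.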

Additional observations from a re-analysis of the deposited data

How the results depend on the processing

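The reported values were 1381 EGFP+ and 728 EGFP- clusters, 25.05% of distal EGFP+ intervals in clusters, a median span of 17.97 kb, 20.4% of clusters with no distal EGFP- interval, 37.2% of clustered intervals overlapped by an EGFP- interval, 43.1% marked in both tissues and 14.4% of genes within 100 kb of a cluster. Counts within 1.5 times and shares or spans within their 95% interval were taken as unmoved, which held for 16 of 96 recomputed values. The other 80 follow. With stitching at 5 kb, there were 377 EGFP+ clusters and 149 EGFP- clusters, clusters held 5.62% of distal EGFP+ intervals, their median span was 5.87 kb and 25.99% of them held no distal EGFP- interval. Of the clustered intervals 38.5% were overlapped by an EGFP- interval and 45.2% marked in both tissues, and 3.94% of genes had a cluster within 100 kb. With stitching at 25 kb, there were 1337 EGFP- clusters, clusters held 45.7% of distal EGFP+ intervals, their median span was 35.6 kb and 17.1% of them held no distal EGFP- interval. Among clustered intervals 35.02% were overlapped by an EGFP- interval and 40.6% marked in both tissues, and 23.5% of genes had a cluster within 100 kb. With only intervals of a -log10 q from 5 up, there were 357 EGFP+ clusters and 134 EGFP- clusters, clusters held 13.4% of distal EGFP+ intervals and 23.2% of them held no distal EGFP- interval. Of intervals in clusters 40.1% were overlapped by an EGFP- interval and 46.7% marked in both tissues, and 4.82% of genes had a cluster within 100 kb. With only intervals of 4-fold and up, there were 114 EGFP+ clusters and 45 EGFP- clusters, clusters held 3.72% of distal EGFP+ intervals and their median span was 19.8 kb. Of those clustered intervals 42.4% were overlapped by an EGFP- interval and 34.1% marked in both tissues, and 1.51% of genes had a cluster within 100 kb. With all lists as long as the shortest, there were 696 EGFP+ clusters, clusters held 17.95% of distal EGFP+ intervals and 15.1% of them held no distal EGFP- interval. Of all clustered intervals 44.5% were overlapped by an EGFP- interval and 47.4% marked in both tissues, and 8.57% of genes had a cluster within 100 kb. Counting overlaps from 50% of the shorter, clusters held 27.4% of distal EGFP+ intervals, their median span was 16.4 kb and 22.9% of them held no distal EGFP- interval. Of clustered intervals 33.2% were overlapped by an EGFP- interval and 38.6% marked in both tissues, and 15.8% of genes had a cluster within 100 kb. Without the promoter filter, there were 2769 EGFP+ clusters and 1926 EGFP- clusters, and promoter intervals counted as well. Clusters then held 32.1% of all merged EGFP+ intervals, their median span was 16.4 kb and 9.46% of them held no EGFP- interval. Of merged clustered intervals 54.2% were overlapped by an EGFP- interval and 56.4% marked in both tissues, and 37.3% of genes had a cluster within 100 kb. From limb lists alone, there were 411 EGFP- clusters, clusters held 21.8% of distal EGFP+ intervals, their median span was 16.1 kb and 25.7% of them held no distal EGFP- interval. Of their intervals 35.2% were overlapped by an EGFP- interval, and 9.86% of genes had a cluster within 100 kb. From trunk lists alone, there were 620 EGFP+ clusters and 284 EGFP- clusters, clusters held 16.6% of distal EGFP+ intervals and 24.4% of them held no distal EGFP- interval. Of the intervals inside 35.3% were overlapped by an EGFP- interval, and 7.79% of genes had a cluster within 100 kb. At a minimum of 3 intervals, there were 2865 EGFP+ clusters and 1733 EGFP- clusters, clusters held 39.7% of distal EGFP+ intervals, their median span was 11.3 kb and 31.2% of them held no distal EGFP- interval. Of intervals inside them 35.1% were overlapped by an EGFP- interval and 40.7% marked in both tissues, and 25.1% of genes had a cluster within 100 kb. At a minimum of 6 intervals, there were 450 EGFP+ clusters and 193 EGFP- clusters, clusters held 11.7% of distal EGFP+ intervals, their median span was 27.6 kb and 11.6% of them held no distal EGFP- interval. Of the intervals therein 38.5% were overlapped by an EGFP- interval and 46.5% marked in both tissues, and 5.72% of genes had a cluster within 100 kb. On autosomes alone 15.03% of genes had a cluster within 100 kb. With gene windows of 50 and 500 kb, 8.21% and 44.1% of genes had one. The share marked in both tissues has no value where 1 tissue was used. EGFP+ clusters outnumbered EGFP- clusters in every setting, by 696 to 590 at equal list lengths. No paired analysis was possible because each population had 1 library. An interval absent from a list is a peak that did not pass the caller's threshold, not absence of the mark.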
